A study of Homo sapiens with 8 samples.

Results

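The sites described here are 1786 TAZ peaks of the list made after 72 h of doxycycline (Dox), out of 38667 peaks in that list. They were selected on the peak calls alone: a 72 h peak had to overlap, by at least 1 bp, a peak in both the 24 h and the 48 h list and none in the list made without Dox, a rule that took 4.62% of the 72 h peaks. TAZ, encoded by WWTR1, is a transcriptional co-activator restrained by the Hippo kinase cascade. It does not bind DNA itself and is brought to chromatin by partner factors, best known the TEAD family, whose sites hold the core CATTCC. At many enhancers TEAD factors act beside AP-1 factors, dimers of JUN and FOS proteins, and CCN1, CCN2 and ANKRD1 are textbook YAP/TAZ target genes.

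MCF10A cells, an established line of non-transformed human mammary epithelial cells, were transduced with TAZ-4SA, an activated form of TAZ whose expression is switched on by Dox. Cells of this transduced line received 0.05 µg/ml Dox for 24, 48 or 72 h, or no Dox. Chromatin immunoprecipitation was followed by sequencing, with 1 TAZ library and 1 IgG library in each of the 4 conditions, 8 libraries in all. The labels tie the IgG library of a condition to the same list as its TAZ library, so 1 peak list per condition was analysed and no value has a replicate. All cells, those without Dox included, carry the transgene, and no source used here says that the antibody to TAZ separates TAZ-4SA from the TAZ of the cell.

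The lists without Dox and after 24, 48 and 72 h held 2431, 2469, 11767 and 38667 peaks. The genome-wide background behind these calls, recovered from the fold enrichment and p-value of each peak, was 1.49, 1.42, 2.84 and 2.01 fragments. The median number of fragments at a summit was 20, 24, 36 and 32. By this background the 24 h list was about as deep as the list without Dox, and the 48 h list was the deepest. A condition and its library cannot be told apart in this design, and all intervals below cover counting error over sites only.

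Of 2365 peaks of the 72 h list that lay over a 24 h peak, 2222 also lay over a 48 h peak, and 436 of these lay over a peak without Dox and were therefore left out. Read from the 24 h side, 1980 of 2469 peaks had no counterpart without Dox. Of these, 1814 were still called at both 48 h and 72 h, 92 at 72 h but not 48 h, 33 at 48 h but not 72 h, and 41 at 24 h alone. Sites called at 24 h were thus nearly always called again. The peaks not called again had been weaker at 24 h, as the median 24 h fold enrichment was 7.52 under a kept site, against 3.43 for peaks called at 24 h alone and 3.28 for peaks lost by 72 h. Some of the lowest of these values were on sequences of the build outside chromosomes 1 to 22, X and Y. Others lay far from any coding TSS, several with H3-7 on chromosome 1 as the nearest gene. Of the 1786 kept sites, 11 joined 2 peaks of the 24 h list and 62 joined 2 or more of the 48 h list. On chromosomes 1 to 22, X and Y lay 1782 sites, and the other 4 lay on other sequences of the build. Where both intervals had to be covered by at least 50%, the rule took only 204 sites.

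The edge of the rule was not crowded. The smallest overlap with a 24 h peak was 181 bp, at a site near SCG2, followed by 267 bp near EHD2 and 288 bp near GULP1. The nearest peak without Dox lay 913 bp from a kept site near EMB, and the next distances were 1112 bp near TTC7A and 1435 bp near ASXL1. Just outside the rule were sites that overlapped a peak without Dox by 296 bp near ASAP1 and by 386 bp near CELF4 and CYRIB, and sites whose nearest 24 h peak was 570 bp away near LOXL2 and 597 bp away near SUGCT. The median distance from a kept summit to the nearest summit without Dox was 350084 bp.

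The sequence at the summits shows what these sites have in common beyond the rule. The 6 stretches of hg38, given on the + strand and 50 bp to each side of the 72 h summit, are shown first because they are examples of the TEAD and AP-1 sequences on which the motif counts rest. The capitals mark the TEAD consensus ACATTCC or GCATTCC, or its other strand GGAATGT or GGAATGC, and the AP-1 consensus TGACTCA or TGAGTCA. The sites near CCN2, WTIP and CCDC85C are among the 10 sites with the highest geometric mean of fold enrichment over the 3 times within 1 kb of a protein-coding transcription start site (TSS), those near C18orf63 and PLAC8 are among the 10 with the most TEAD matches, and the one nearest to VEGFA was added after its values had been seen, because its fold enrichment increased most.
CCN2, chr6:131951422-131951522: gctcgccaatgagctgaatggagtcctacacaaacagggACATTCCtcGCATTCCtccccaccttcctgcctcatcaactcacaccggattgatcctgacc
WTIP, chr19:34481620-34481720: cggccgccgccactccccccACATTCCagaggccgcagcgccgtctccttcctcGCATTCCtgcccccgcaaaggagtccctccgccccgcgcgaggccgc
C18orf63, chr18:74316937-74317037: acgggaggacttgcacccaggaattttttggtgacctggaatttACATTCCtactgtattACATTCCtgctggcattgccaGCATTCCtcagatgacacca
PLAC8, chr4:83207868-83207968: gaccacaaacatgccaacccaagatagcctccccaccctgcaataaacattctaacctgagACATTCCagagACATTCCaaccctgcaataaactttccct
CCDC85C, chr14:99579971-99580071: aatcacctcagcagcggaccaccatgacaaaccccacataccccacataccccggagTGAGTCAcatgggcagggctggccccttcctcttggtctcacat
VEGFA, chr6:43851260-43851360: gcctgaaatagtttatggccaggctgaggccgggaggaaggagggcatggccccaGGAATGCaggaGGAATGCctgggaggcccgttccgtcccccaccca
At CCN2, 100 bp from the TSS of this matricellular protein gene, ACATTCC and GCATTCC stand on the same strand with 2 bp between them, and 1 more of its 3 matches within 100 bp lies outside the stretch shown. The fold enrichment there was 16.8 at 24 h, 19.9 at 48 h and 37.9 at 72 h. At WTIP, which encodes a LIM protein of the Ajuba family that restrains the Hippo kinases, the summit lay 88 bp from the TSS and the values were 25.2, 22.7 and 101.6. The site beside C18orf63 was the strongest of all kept sites at 24 h, with values of 51.9, 79.2 and 70.4, and it held 4 TEAD matches. PLAC8 had 4 matches and values of 19.2, 40.8 and 44.6, and CCDC85C had 1 AP-1 match, shown, and 1 TEAD match outside the stretch, with values of 15.7, 17.6 and 52.9.

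Spaced pairs as in CCN2 were the most frequent arrangement. Among 296 pairs of adjacent TEAD matches in the kept sites, 20 (6.76%) were on the same strand with 2 bp between them, and the next most frequent spacing, 13 bp on the same strand, had 10 pairs. In the sites gained at 48 h and kept, 22 of 625 pairs (3.52%) had the 2 bp spacing, which was also their most frequent arrangement. Pairs in 1 tandem repeat are not independent, and the difference between the classes was not tested.

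A second kind of summit lacked the consensus but held letters close to it. The 3 sites that follow are shown in the same way, with capitals at the core CATTCC, the word AATTCC or the word CATACC on either strand. ANKRD1 is on the list of YAP/TAZ targets, SEH1L is among the same 10 sites near a TSS as CCN2, and the SMYD3 site was added after its values had been seen, as the site with the highest 24 h fold enrichment among those without the consensus.
ANKRD1, chr10:90931217-90931317: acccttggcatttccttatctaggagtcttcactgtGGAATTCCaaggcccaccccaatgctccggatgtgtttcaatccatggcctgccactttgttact
SEH1L, chr18:12946857-12946957: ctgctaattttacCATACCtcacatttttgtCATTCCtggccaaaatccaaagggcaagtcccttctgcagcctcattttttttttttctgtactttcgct
SMYD3, chr1:246435702-246435802: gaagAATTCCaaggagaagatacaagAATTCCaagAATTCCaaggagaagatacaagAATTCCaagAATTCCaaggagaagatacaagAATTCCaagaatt
The ANKRD1 site lies 10180 bp from the TSS and its summit carries GGAATTCC, in which both strands read AATTCC. Its fold enrichment was 8.75, 34.9 and 43.4 at 24, 48 and 72 h. SEH1L, a nucleoporin gene, had CATACC and CATTCC near its summit and values of 12.1, 22.3 and 38.4. The SMYD3 site, in an intron of this methyltransferase gene, repeats AATTCC along its whole stretch and was one of the few that were lower later, with values of 46.7, 40.3 and 36.2.

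Another kind held its TEAD matches in tandem repeats, in which a short unit is repeated head to tail. Of the 10 sites with the most TEAD matches, 4 are shown with 100 bp to each side of the summit, marked as the first set, because the repeat can be read directly.
GRIN2B, chr12:13526573-13526773: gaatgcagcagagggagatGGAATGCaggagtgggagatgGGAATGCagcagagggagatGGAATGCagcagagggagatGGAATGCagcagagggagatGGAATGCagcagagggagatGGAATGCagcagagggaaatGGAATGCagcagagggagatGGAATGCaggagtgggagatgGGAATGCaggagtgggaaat
SBF2, chr11:10249742-10249942: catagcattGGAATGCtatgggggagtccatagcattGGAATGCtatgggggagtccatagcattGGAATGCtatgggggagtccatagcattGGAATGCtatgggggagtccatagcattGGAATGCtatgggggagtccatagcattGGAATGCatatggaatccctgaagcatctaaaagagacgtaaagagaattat
DOT1L, chr19:2201106-2201306: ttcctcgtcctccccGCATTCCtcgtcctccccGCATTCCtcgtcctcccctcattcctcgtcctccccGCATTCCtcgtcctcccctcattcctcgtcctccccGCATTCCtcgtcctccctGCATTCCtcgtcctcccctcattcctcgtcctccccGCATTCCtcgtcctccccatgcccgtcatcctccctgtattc
PLCB4, chr20:9015522-9015722: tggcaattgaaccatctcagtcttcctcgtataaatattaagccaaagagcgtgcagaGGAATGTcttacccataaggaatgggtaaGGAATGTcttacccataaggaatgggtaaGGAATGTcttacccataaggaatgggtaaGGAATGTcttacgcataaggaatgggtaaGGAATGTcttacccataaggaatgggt
The unit was 20 bp at the GRIN2B site, with 9 TEAD matches, 28 bp at the SBF2 site with 6, 18 bp at the DOT1L site with 6, and 29 bp at the PLCB4 site with 5. The GRIN2B site lies inside the gene for this NMDA receptor subunit and the DOT1L site in an intron of this histone methyltransferase gene. At 72 h their fold enrichments were 12.7, 19.6, 10.4 and 13.6, all below the median of the kept sites. A window was counted as a tandem repeat where at least 10% of its 12 bp words occurred in it more than 1 time. This held for 55 early kept sites (3.08%, 95% exact interval 2.33 to 3.99%), against 124 of 8393 sites gained at 48 h and kept (1.48%, 1.23 to 1.76%) and 436 of 26252 sites called at 72 h alone (1.66%, 1.51 to 1.82%). The differences were 1.60 points (95% Newcombe interval 0.84 to 2.54) and 1.42 points (0.69 to 2.34), both intervals leaving out 0. Among the 436 sites called in all 4 lists it held for 13 (2.98%, 1.60 to 5.04%), near the share of the early kept sites. Repeats held 12 of the 48 kept sites with 3 or more TEAD matches, and the median fold enrichment at 72 h was 21.5 in repeats and 21.3 elsewhere. The share of reads that map to more than 1 place in such repeats is not given in the sources used here, and its part in these calls was not tested.

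Fold enrichment is the ratio of fragments at the summit to the local background, with the same small constant added to both. The median local background of the kept sites was 2.01, 4.83 and 3.60 fragments at 24, 48 and 72 h. At these medians the constant lowers the ratio most at 24 h, and its part in the changes over time was not tested. Fold enrichment is a value of the same lists that chose the sites and is described without a test. Its median was 7.54 at 24 h, 11.4 at 48 h and 21.3 at 72 h, and the middle 50% of the sites lay between 6.17 and 9.64, between 8.28 and 15.4, and between 15.1 and 29.1. The lowest and highest values were 1.69 and 51.9 at 24 h, 2.08 and 86.3 at 48 h, and 1.503 and 140.8 at 72 h. The highest 72 h value belonged to a site 27861 bp from the TSS of SERTAD4, with 36.1 and 86.3 at 24 and 48 h and 2 TEAD matches. The next was in an exon near SLC25A17, a peroxisomal carrier gene, with 34.4, 50.6 and 118.2. The next, near SNAPC1, had 38.5, 63.2 and 105.5 and is a tandem repeat with none of the TEAD-like letters.

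**Figure D1:**
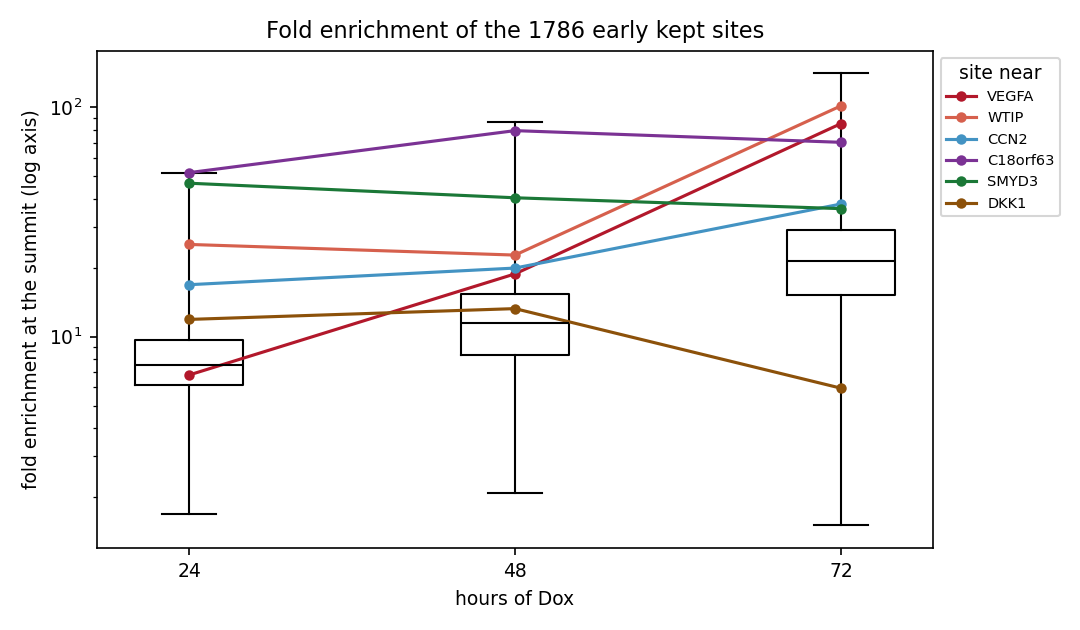
Fold enrichment at the summit (log axis) of the 1786 early kept sites at 24, 48 and 72 h of Dox, with 1 library per time. Boxes span the middle 50%, the line is the median (7.54, 11.4 and 21.3) and whiskers reach the lowest and highest site; coloured lines follow 6 named sites, among which VEGFA was steepest and DKK1 and SMYD3 were lower at 72 h than at 24 h.

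Within single sites the median ratio was 1.46 for 48 h over 24 h, 1.84 for 72 h over 48 h and 2.71 for 72 h over 24 h. The value was higher at each later time in 1315 sites (73.6%), highest at 48 h in 187 (10.5%), lowest at 48 h in 275 (15.4%), and lower at 72 h than at 24 h in 47 (2.63%). At least 2-fold higher values were found in 1310 sites (73.3%) for 72 h over 24 h, where 74.7% of all 72 h peaks over a 24 h peak passed, in 767 sites (42.9%) for 72 h over 48 h, where 44.9% of all 72 h peaks over a 48 h peak passed, and in 347 sites (19.4%) for 48 h over 24 h, where 18.8% of all 48 h peaks over a 24 h peak passed. These shares are near those of any site followed between the same lists, of which the kept sites are themselves a large part. Ranks shifted over time, with Spearman correlations across the 1786 sites of 0.56 between 24 and 48 h, 0.50 between 48 and 72 h and 0.40 between 24 and 72 h. Sites are not independent replicates, and each list is 1 library.

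The number of fragments at the summit had a median of 22, 66 and 101 at 24, 48 and 72 h. In the 24 h list every kept site had at least the 9 fragments of the weakest peak without Dox, 1779 had at least the 11 fragments of the 5th percentile without Dox, and 1176 had at least the median of 20 without Dox. The weakest peak of the whole 24 h list also had 9 fragments, and the 5th percentile of that list was 14. Reaching 9, and nearly always 11, therefore follows from being called at 24 h. Peaks also widened, with a median width of 401, 853.5 and 1261 bp, and 1751 of the 24 h intervals (98.04%) lay wholly inside the 72 h interval. The summit stayed in place. Its median shift between 24 and 72 h was 29 bp, 1578 summits (88.4%) moved by no more than 100 bp, and 39 (2.18%) moved by more than 500 bp. At 72 h, 1150 kept sites (64.4%) had a fold enrichment in the upper 10% of the 72 h list, which began at 17.7.

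Among the 10 sites with the largest ratio of 72 h over 24 h the ratio was 12.5 near VEGFA and 8.06 near KIFC3. The VEGFA site lay 73138 bp from the TSS of this angiogenic growth factor gene, and 2 copies of GGAATGC lay beside its summit. Its fold enrichment was 6.80, 18.8 and 85.0. The sites 404811 bp from ZSWIM6 (10.9-fold) and near ZNF507 (9.92-fold), C11orf24 (9.58-fold) and TIMP3 (9.14-fold) followed, and the TIMP3 site, near this metalloproteinase inhibitor gene, was read at 6.39, 17.7 and 58.4. GRHL2 (8.75-fold), CUL4B (8.67-fold) and SERTAD2 (8.08-fold) were also in this set. At the other end stood DKK1, a secreted Wnt inhibitor, with values of 11.9, 13.2 and 5.96 and a ratio of 0.50. NSUN6, KCNK2, KTN1, EMB, ZNF705G, FAM110B, SLC8A1 and SMYD3 were also in this set, with ratios of 0.63 to 0.77. None of these genes is shown to be the target of its site; each is the protein-coding gene with the nearest annotated TSS.

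A local background above 10 fragments was found at 11 sites at 72 h and at 6 sites at 24 h, where it was 20.1 to 148 fragments and the fold enrichment only 1.69 to 3.68. The site with EMB as its nearest gene, 809965 bp away, with 249 fragments and a fold enrichment of 2.48 at 24 h, is 1 of these. In all, 102 sites (5.71%) shared a run of at least 30 bp with the summit window of another kept site, so not all members are independent in sequence.

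The TEAD consensus lay within 100 bp of the 72 h summit in 912 of 1786 early kept sites, 51.1% (95% exact interval 48.7 to 53.4%). In windows of the same width 1 kb from the same summits it lay in 5.74%, so the summits held it 8.90 times as often. The share was 40.2% (39.1 to 41.2%) in the 8393 sites gained at 48 h and kept, 22.4% (21.9 to 22.9%) in the 26252 sites called at 72 h alone, 63.5% (58.8 to 68.1%) in the 436 sites of all 4 lists, and 27.7% in all 38667 peaks of the 72 h list. The early kept sites stood 10.9 points above the sites gained at 48 h (95% Newcombe interval 8.34 to 13.4) and 28.6 points above the sites called at 72 h alone (26.3 to 31.0), and 12.5 points below the sites of all 4 lists (interval of the difference -17.4 to -7.30). A difference is called here where its interval leaves out 0.

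The early kept sites were also stronger at 72 h, and in each class the TEAD share was higher at a fold enrichment of 20 to 40 than at 5 to 10. Among sites with a fold enrichment of 10 to 20 at 72 h the TEAD share was 45.9% of 662 early kept sites and 42.9% of 3923 sites gained at 48 h, a difference of 3.02 points (-1.05 to 7.13). Among those of 20 to 40 it was 56.7% of 827 and 53.2% of 1141, a difference of 3.51 points (-0.94 to 7.93). At matched strength the difference from the 48 h sites was therefore not detected. The difference from the sites called at 72 h alone remained past 0 in both ranges, at 10.1 points (5.99 to 14.2) and 17.8 points (9.42 to 25.7), but not in the range of 5 to 10 (5.67 points, -1.77 to 14.3).

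**Figure D2:**
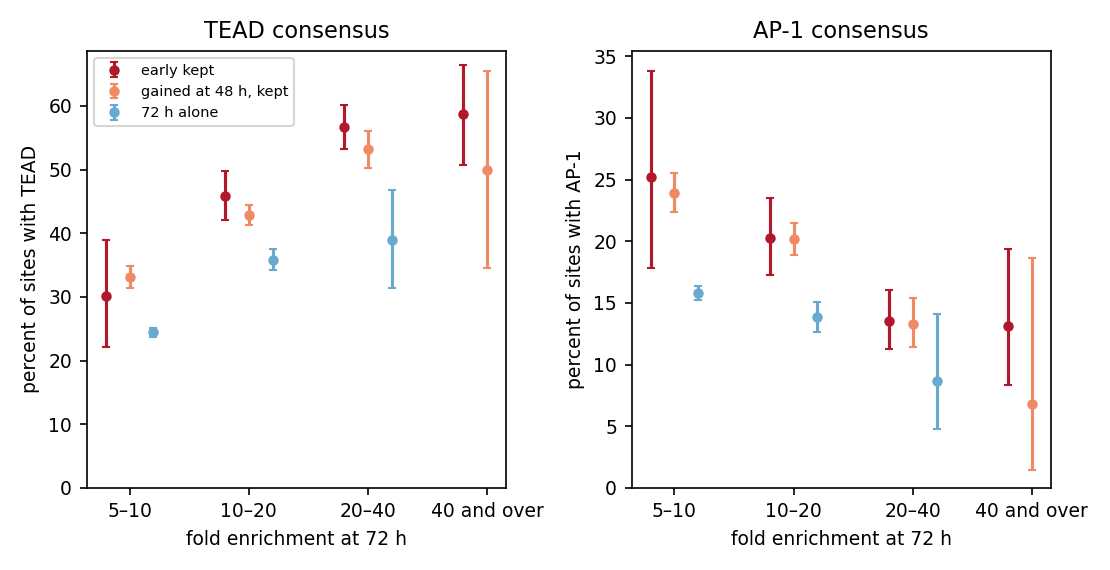
Percent of sites with a TEAD (left) or AP-1 (right) consensus within 100 bp of the 72 h summit, by fold enrichment at 72 h, for early kept sites, sites gained at 48 h and kept, and sites called at 72 h alone. Points are shares and bars 95% exact intervals; classes with under 20 sites in a range are not drawn, and the intervals of early kept sites and 48 h sites overlap within each range.

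The number of matches carried the same pattern. Of the early kept sites, 687 had 1 TEAD match, 177 had 2 and 48 had 3 or more, and their median fold enrichment at 72 h was 21.98, 25.9 and 29.3, against 19.7 in the 874 sites with none. At 24 h the medians were 7.61, 8.31 and 9.66, against 7.24 with none. At least 2 matches were found in 12.6% of the early kept sites, 6.51% of the sites gained at 48 h and 2.21% of those called at 72 h alone, differences of 6.09 points (4.53 to 7.79) and 10.4 points (8.92 to 12.02). In the sites of all 4 lists the share was 14.7%. These differences are over all strengths and were not computed at matched fold enrichment. With tandem repeats left out the first difference was 5.61 points (4.08 to 7.30).

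The matches sat at the summit itself. The TEAD match nearest to the 72 h summit, in the 1187 sites with one within 500 bp, had a median distance of 29 bp, and 762 sites (42.7%) had one within 50 bp. Around the 24 h summits the values were 1193 sites, 31 bp and 772 sites, so the same position was read at both times. In bins of 20 bp the density was 15.7 and 14.2 matches per 100 sites on either side of the 72 h summit and 0.56 and 0.73 at the ends, about 490 bp away. AP-1 matches formed a lower and broader peak, with 2.46 and 2.24 matches per 100 sites beside the summit, and their median distance was 106 bp.

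**Figure D3:**
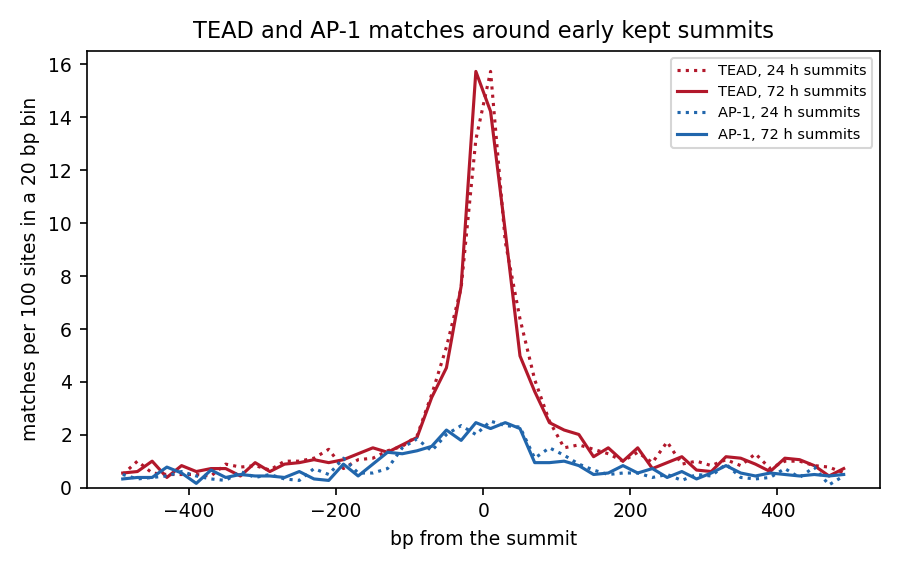
Matches of the TEAD and AP-1 consensus per 100 early kept sites in 20 bp bins, by distance in bp from the 24 h summit (dotted) and the 72 h summit (solid). TEAD reaches 15.7 matches per 100 sites beside the summit at both times, and AP-1 stays below 2.6.

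The 874 early kept sites without the consensus were then searched for any 6-letter word, counted on both strands. Among 1387 words found in at least 5% of these sites, the word with the highest ratio to the windows 1 kb away was CATACC, in 21.6% of the sites and 5.09% of the outer windows. AATTCC was in 43.9% and 12.1%. Each differs from CATTCC by 1 base. GAATTC, which overlaps AATTCC, was in 21.2% and 5.26%. The words GAGTCA (24.5% and 9.21%) and GACTCA (22.9% and 9.27%) are parts of the AP-1 consensus, and AACCAC (21.97% and 8.41%) is the other strand of part of the RUNX consensus TGTGGTT. The word CATTCT, 1 base from CATTCC as well, was in 39.5% and 16.1%. These words were picked by their ratio in these same sites, so the values are a description.

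Counted together, 912 early kept sites had the TEAD consensus, another 139 had the core CATTCC after another letter, another 420 (23.5%) had AATTCC or CATACC, and 315 (17.6%) had none of these. Any of the 3 was present in 82.4% of the early kept summits (80.5 to 84.1%) and in 25.3% of their windows 1 kb away. The same letters were present in 73.4% (72.4 to 74.3%) of the sites gained at 48 h and in 47.0% (46.4 to 47.7%) of the sites called at 72 h alone, and in 25.02% and 23.97% of the outer windows. Within the range of 10 to 20 in fold enrichment the shares were 77.9% and 76.5%, a difference from the 48 h sites of 1.47 points (-2.09 to 4.76). At 20 to 40 they were 86.1% of 827 and 84.5% of 1141, a difference of 1.61 points (-1.60 to 4.72), and at 40 and over 87.5% of 160 and 75% of 44, a difference of 12.5 points (0.46 to 27.6). The letters were picked in the early kept sites themselves, so these differences are a description. The search with these words was added after the data had been seen. The 315 sites with none of the letters had median fold enrichments of 6.94, 10.5 and 18.7 at 24, 48 and 72 h, and 53 of them (16.8%) held AP-1.

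**Figure D4:**
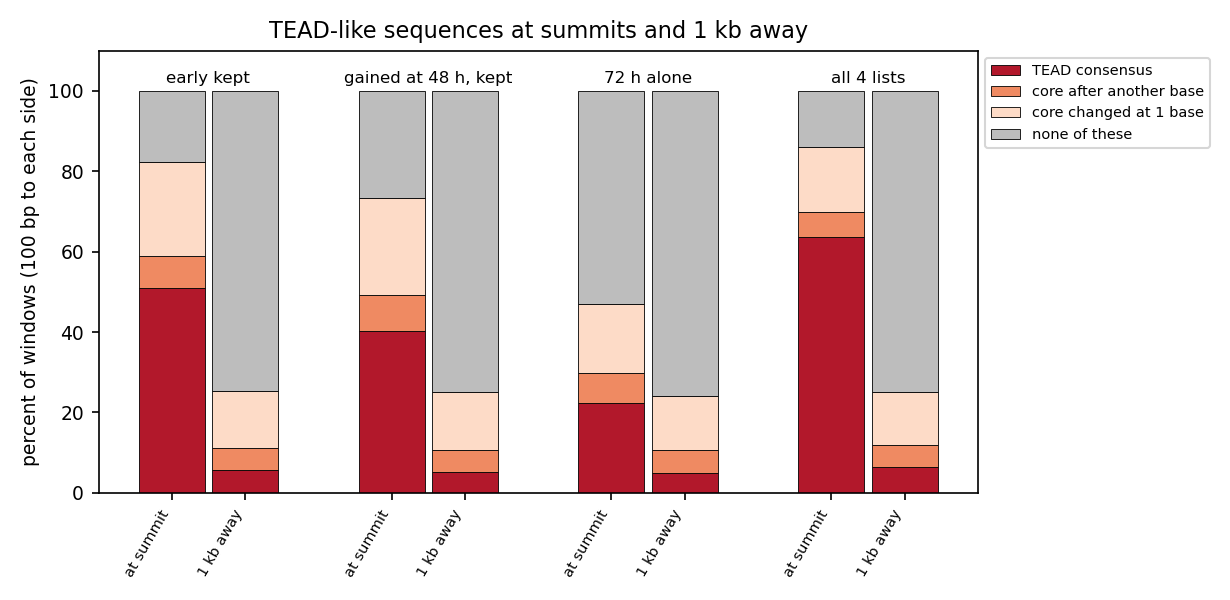
Percent of windows, 100 bp to each side, that hold the TEAD consensus, its core after another base, a core changed at 1 base, or none of these, at the 72 h summit and 1 kb away, for the 4 classes of 72 h peaks. At early kept summits 17.6% hold none, against 26.6% at sites gained at 48 h, 52.95% at sites called at 72 h alone and 13.99% at sites of all 4 lists; the bars 1 kb away are nearly the same in each class.

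AP-1 was less frequent than TEAD in these sites. It lay within 100 bp of 299 early kept summits, 16.7% (15.0 to 18.6%), against 20.7% (19.8 to 21.5%) of the sites gained at 48 h and 15.0% (14.6 to 15.4%) of the sites called at 72 h alone, and in 3.44% of the outer windows. The difference from the 48 h sites was -3.92 points (-5.80 to -1.92) over all strengths and 0.08 points (-3.08 to 3.53) among sites of 10 to 20 in fold enrichment. That from the sites called at 72 h alone was 1.75 points (0.03 to 3.60), and its interval took in 0 when only peaks with a -log10 q of at least 5 were used (1.59 points). At matched strength this difference was larger. It was 9.41 points (2.54 to 17.8) at 5 to 10 in fold enrichment and 6.42 points (3.29 to 9.85) at 10 to 20. At 20 to 40 it was 4.90 points, with an interval that took in 0 (-0.86 to 9.14). AP-1 and TEAD stood together in 135 early kept sites (7.56%), AP-1 alone in 164 (9.18%), TEAD alone in 777 (43.5%) and neither in 710 (39.8%). AP-1 was in 14.8% of the sites with TEAD and 18.8% of those without, a difference of -3.96 points (-7.44 to -0.50). Its share was 18.8%, 16.4%, 11.3% and 4.17% of the sites with 0, 1, 2 and 3 or more TEAD matches. With tandem repeats left out the difference was -3.57 points (-7.11 to -0.04).

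RUNX proteins are the family of Runt domain factors. Their consensus TGTGGTT or its other strand was in 11.8% of the early kept sites, 10.5% of the sites gained at 48 h and 5.60% of those called at 72 h alone, and in 3.44% of the outer windows. The difference from the sites at 72 h alone was 6.22 points (4.77 to 7.82), and that from the 48 h sites was not detected (1.35 points, -0.21 to 3.06). In the sites of all 4 lists the share was 7.80%, 4.02 points (0.79 to 6.70) below the early kept sites, whereas TEAD was more frequent in the sites of all 4 lists. Within the early kept sites RUNX was in 8.77% of those with the TEAD consensus. It was in 17.3% of the 139 with the core CATTCC after another letter, 14.05% of those with AATTCC or CATACC and 15.2% of those with none of the letters. These shares are 8.49 points (2.75 to 15.8), 5.28 points (1.66 to 9.29) and 6.47 points (2.39 to 11.2) above the sites with the consensus. The words AATTCC and CATACC were picked in these same sites, and part of the RUNX consensus was among the words of that search. These differences are therefore a description.

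Motifs usual at housekeeping promoters were rare. The SP/KLF box GGGCGGG was in 2.07% of the early kept sites, against 3.18% of the sites gained at 48 h and 16.5% of the sites called at 72 h alone. The ETS consensus CCGGAAG was in 0.73%, 1.04% and 5.38%. TTCCNGGAA, the palindrome bound by STAT factors, was in 51 early kept sites (2.86%) and 0.31% of the outer windows, but it shares letters with TEAD. In 33 of the 51 the match overlapped CATTCC or its other strand, against 61 of 180 in the 48 h sites and 100 of 364 in the sites called at 72 h alone. For the E-box CACGTG, YY1 (AAGATGG), NFY (GCCAAT), SNAI/ZEB (CAGGTG) and GATA factors (AGATAAG) the share was 0.752 to 1.36 times that in the outer windows, and for FOX (TGTTTAC) and CEBP (TTGCNNAA) it was 1.55 and 1.59 times. All motifs were read on both strands.

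Most of the sites were far from promoters. Of the 1782 sites on annotated chromosomes, 421 (23.6%, 21.7 to 25.7%) lay within 3 kb of a TSS of any gene, a region that covers 16.8% of the genome, 817 (45.8%) lay in introns, 501 (28.1%) between genes and 43 (2.41%) in exons. The promoter share was 24.8% in the sites gained at 48 h, a difference of -1.15 points (-3.28 to 1.07), and 48.5% in the sites called at 72 h alone, a difference of -24.8 points (-26.8 to -22.7). With TSSs of protein-coding genes only, the shares fell and the difference from the 48 h sites was -2.09 points (-3.80 to -0.25). The median distance to a protein-coding TSS was 29101 bp, against 22567 and 7246 bp in those classes, 860 sites (48.3%) lay 10 to 100 kb away and 405 (22.7%) lay farther. The GC content of the summit windows had a median of 43.8%, against 44.3% and 51.7%.

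The motif content of the kept sites was not shown to differ by place. TEAD was in 52.7% of the kept sites in promoters and 50.5% of those in introns and between genes, a difference of 2.28 points (-3.20 to 7.71), and AP-1 in 16.2% and 16.8%. The median fold enrichment at 72 h was 23.3 in promoters, 20.6 in introns and 21.3 between genes. By the geometric mean of fold enrichment over the 3 times, the 10 highest sites within 1 kb of a protein-coding TSS were at WTIP, ATXN10, MALSU1, CCDC85C, TMOD3, CCN2, SLFN12, SEH1L, SERTAD2 and TNNT2. Among them MALSU1, a gene of mitochondrial ribosome assembly, had 10.6, 24.2 and 71.0, TMOD3, which caps actin filaments, had 11.3, 27.0 and 46.7, and TNNT2, the cardiac troponin T gene, had 9.61, 20.7 and 48.8. In RefSeq promoters of build GRCh38.p14, 250 bp before to 50 bp after each gene's start, the TEAD consensus was in 6.64% of 35116, and in 10 of the 104 that matched one of 119 genes with a kept site within 1 kb.

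Another 72 h peak lay within 10 kb of 943 kept sites (52.8%, 50.5 to 55.1%), against 51.1% of the sites gained at 48 h (difference 1.65 points, -0.90 to 4.19) and 44.3% of those called at 72 h alone (8.47 points, 6.07 to 10.9). Peaks called at 72 h alone lay within 10 kb of 37.0% of them. Another early kept site lay within 50 kb of 348 (19.5%, 17.7 to 21.4%), which is 3.52 points (1.58 to 5.57) above the share of 48 h sites with an early kept neighbour, 16.0%. By chromosome, the number per Mb was highest on chromosome 1, at 0.868, and lowest, Y aside, on X, at 0.263, and no site lay on Y, where the 72 h list held 2 peaks. As a share of the 72 h peaks of the chromosome, kept sites were 5.34% on chromosome 1 and 4.46% on X, beside 4.62% of the whole list. The low number on X was thus shared by the 72 h list.

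The sites were assigned to the protein-coding gene with the nearest TSS within 100 kb, which gave 1161 genes, 5.8% of 20007, for 1377 sites. Of these, 996 had 1 site and 165 had 2 or more. Within 3 kb of a TSS, 246 genes (1.23%) had a site. ANXA2, CAV2, EXT1, FRMPD4, LIMCH1, PALM2AKAP2, SHROOM3 and STEAP1B had the most, 4 each. ANXA2 encodes annexin A2, a calcium-dependent membrane and actin binding protein, and all 4 of its sites held TEAD, with fold enrichments at 24 h between 5.81 and 7.52 and at 72 h between 12.9 and 28.0. CAV2, a caveolin gene, had its 4 sites in introns, with 24 h values of 8.65 to 12.5 and 72 h values of 16.9 to 42.1, and TEAD in 2. SHROOM3, which organises apical actomyosin, had TEAD in 3 of 4, and LIMCH1, an activator of non-muscle myosin, in none. Long genes such as FRMPD4 (902 kb) and PALM2AKAP2 (674 kb) offer more room for sites.

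Of 22 genes of a YAP/TAZ target signature, 14 (63.6%) were nearest to a kept site within 100 kb, beside 5.8% of all genes, and CCN1 and CCN2 had one within 3 kb. Peaks of the whole 72 h list were frequent there too. Some 72 h peak lay within 3 kb of 21 of the 22 (95.5%), beside 58.5% of all protein-coding genes. Here and in the lists below, this measure is unlike the nearest-gene count within 100 kb, which was not made for the other 72 h peaks. Within 3 kb a kept site was found for 9.09% of this list, beside 1.23% of all genes. CCN1, the partner gene of CCN2 and likewise a matricellular protein, had a promoter site with 9.09, 11.5 and 16.7 and a site 30629 bp away with 5.74, 11.997 and 16.01, each with 1 TEAD match. The receptor tyrosine kinase gene AXL had a site at 3107 bp with 10.8, 18.4 and 30.2. CRIM1, a transmembrane regulator of BMPs, had 2 intronic sites, with 14.8, 21.4 and 26.4 and with 12.6, 27.4 and 26.9. CCDC80, an extracellular matrix protein gene, had 3, whose 72 h values lay between 26.8 and 27.7. NT5E, an ecto-nucleotidase gene, had the steepest ratio of the list, 5.00, with 4.49, 13.5 and 22.5. AMOTL2, PTPN14, MYOF, TGFB2, F3, FOXF2 and ASAP1 had the others. TEAD was within 100 bp of the summit in 11 of the 19 sites of these genes, beside 912 of all 1786 early kept sites (51.1%).

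Genes of the Hippo pathway, the kinase cascade that restrains TAZ, form another list, which also holds upstream regulators, TEAD genes and VGLL4. It overlaps the other lists, as AMOTL2 and PTPN14 are also in the YAP/TAZ signature and TEAD1 and TEAD3 in the TEAD list. Of 41 genes, 18 (43.9%) were nearest to a kept site and 4 (WWC1, WWC3, FRMD6 and WTIP) had one within 3 kb. Some 72 h peak lay within 3 kb of 36 of the 41 (87.8%). The scaffold gene WWC1, also called KIBRA, had a promoter site with 8.23, 17.8 and 40.7 and an intronic one with 5.05, 8.37 and 27.0, and its paralogs WWC2 and WWC3 also had sites. FRMD6, a FERM domain regulator of the cascade, had 3, of which the intronic one had 5.71, 12.6 and 38.5. NF2, which encodes merlin, had one with 10.97, 18.96 and 22.1 in an intron, SAV1, the adaptor of the upstream kinases, one with 9.72, 15.7 and 27.7, and STK3, one of those kinases, one with 9.26, 8.64 and 22.7. The atypical cadherin genes FAT1 and FAT4 had 3 and 1, with 72 h values of only 8.34 to 13.7. VGLL4, which competes with YAP and TAZ for TEAD, had one with 9.35, 10.2 and 24.2.

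Among the partner factors, TEAD1 had 2 intronic sites, with 7.90, 7.94 and 16.7 and with 7.26, 6.46 and 21.6, TEAD3 had one with 5.44, 12.9 and 39.7, and neither TEAD2 nor TEAD4 was nearest to any. A peak 4 bp from the TEAD4 TSS was gained at 24 h with a fold enrichment of 16.1 and called again at 72 h, but it had no overlapping peak at 48 h and so is not a kept site. All 4 TEAD genes had some 72 h peak within 3 kb. Of 14 AP-1 genes only ATF3 (7.14%) was nearest to a kept site, through a site with 8.93, 9.95 and 19.9. However, 11 of the 14 (78.6%) had some 72 h peak within 3 kb, beside 58.5% of all protein-coding genes.

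**Figure D5:**
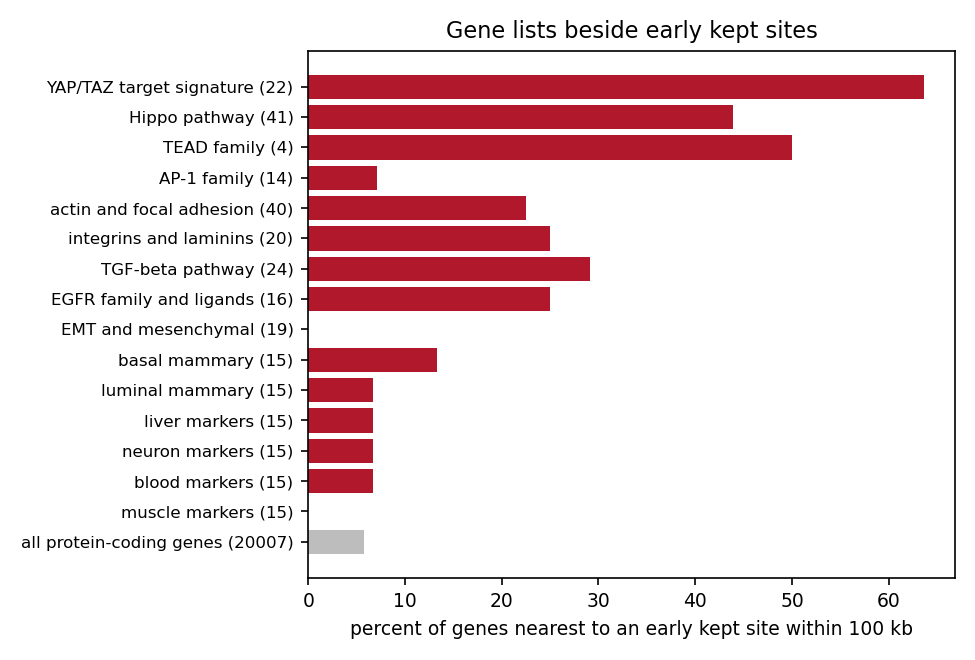
Percent of the genes of each list (number of genes in brackets) that were the nearest protein-coding gene to an early kept site within 100 kb, with all 20007 protein-coding genes in grey. The YAP/TAZ target, TEAD and Hippo lists reach 63.6%, 50% and 43.9%, against 5.8% of all genes, and the EMT and muscle lists have none. Lists share some genes. In the YAP/TAZ target, TEAD and Hippo lists 95.5%, 100% and 87.8% had some 72 h peak within 3 kb, against 58.5% of all genes. This measure is unlike the one drawn: within 3 kb the shares with a kept site were 9.09%, 0% and 9.76%, against 1.23% of all genes.

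Genes of the cytoskeleton and of adhesion were also often nearest to a kept site, as were those of the TGF-beta and EGFR lists below. Of 40 actin and focal adhesion genes 9 (22.5%) were nearest to one, with promoter sites at ACTN4, MYH9, TPM1, LIMA1 and DIAPH3. Some 72 h peak lay within 3 kb of 38 of the 40 (95%). The promoter site of ACTN4, an actin crosslinker, had 9.79, 16.9 and 50.8, and that of LIMA1, an actin bundling protein gene, 7.07, 14.02 and 31.97. MYH9, non-muscle myosin heavy chain, had 5.75, 10.4 and 23.3. Of 20 integrin and laminin genes 5 (25%) were nearest, while 19 of the 20 (95%) had some 72 h peak within 3 kb. ITGA3, the integrin alpha 3 gene, had a promoter site with 5.93, 8.67 and 36.4, and ITGB5, integrin beta 5, had 3, of which the intronic one held 3 TEAD matches and had 10.3, 13.2 and 36.7.

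Of 24 TGF-beta pathway genes 7 (29.2%) were nearest to a kept site but none had one within 3 kb. Some 72 h peak lay within 3 kb of 23 of the 24 (95.8%). The signal transducer gene SMAD3 had 2, with 15.0, 26.5 and 44.5 and with 5.71, 14.02 and 26.9, and both held TEAD. Of 16 genes of the EGFR family and its ligands, 14 (87.5%) had some 72 h peak within 3 kb. Among these 16, 4 (25%) were nearest to a kept site: TGFA, AREG, NRG1 and ERRFI1. None of 19 EMT and mesenchymal genes was, while 14 of the 19 (73.7%) had some 72 h peak within 3 kb, beside 58.5% of all protein-coding genes. Of 15 basal and 15 luminal mammary genes, 2 (CAV2 and TRIM29, 13.3%) and 1 (CDH1, 6.67%) were nearest to a kept site, beside 5.8% of all genes. Some 72 h peak lay within 3 kb of 93.3% of the basal and 66.7% of the luminal genes. CDH1, the E-cadherin gene, had 3 kept sites, with 72 h values of 19.5, 18.5 and 43.2, and TRIM29 had a promoter site with 4.86, 6.16 and 39.0. Marker lists of tissues other than breast, 15 genes each, gave 1 gene for liver (FGB), 1 for neurons (SNAP25), 1 for blood (CD14) and none for muscle, close to the share of all genes. These lists differ in gene length and in the number of genes, and the shares are given with no test.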

How the data were processed

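TAZ and IgG chromatin immunoprecipitation libraries of MCF10A cells were sequenced in 4 conditions, and 1 peak list per condition was analysed. The authors mapped reads to hg38 with BWA and called peaks with MACS2 at an FDR of 0.01, while tool versions, the reads of each library and whether IgG served as control were not given in the sources used here. The deposited lists hold the fold enrichment (a ratio to the local background, with a small constant added to both), -log10 p-value, -log10 q-value and summit offset of each peak. Summit fragment numbers and local backgrounds were recovered from fold enrichment and p-value, and all p-values were recovered within 0.003.

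Peaks of the 72 h list were classed by overlap of at least 1 bp with the other lists, and where several earlier peaks overlapped, the one with the highest fold enrichment was used. Places and genes came from GENCODE version 44, with promoters of 3 kb around any TSS. Motifs were counted on both strands of hg38 within 100 bp of the summit and in windows 1 kb to each side. Shares have exact Clopper-Pearson 95% intervals and differences Newcombe 95% intervals, with sites as units. Neighbouring sites and sites with shared sequence are not independent, so these intervals may be too narrow, and with 1 library per condition they do not cover the spread between cultures. No p-value was computed.

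Named sites were the 10 largest and 10 smallest ratios of 72 h over 24 h, the genes with the most sites, the 10 sites within 1 kb of a protein-coding TSS with the highest geometric mean of fold enrichment over the 3 times, the 10 sites with the most TEAD matches, genes of the lists, and sites at the edge of the rule. Some items that the rule takes are not reported here. Sites and genes outside this rule were named after their values were seen, among them the strongest at each time, further sites of list genes and the sites with a tandem repeat or high background. The members and gene lists were chosen with earlier results of these data known. Python 3.11.15, numpy 2.4.6, pandas 2.3.3, scipy 1.17.1, statsmodels 0.14.6 and pysam 0.24.0 were used, and the interval and motif code was tested on simulated data. Alternatives covered the overlap, thresholds, windows, motif letters, promoter width, TSS set and measure of strength.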

Additional observations from a re-analysis of the deposited data

How the results depend on the processing

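Over 117 alternative values from 19 settings and 14 results, 87 stayed with the reported value, and 40 of 47 differences of shares kept their call. The strictest rule, with both intervals covered by at least 50%, gave 204 sites, a promoter share of 17.8%, an AP-1 share of 19.1%, AP-1 differences of -0.33 points from the 48 h sites and 3.69 points from the sites called at 72 h alone (both no longer called), 25 genes within 3 kb, a neighbour within 10 kb for 46.6%, and median ratios of 1.87 (72 h over 24 h), 1.29 (48 h over 24 h) and 1.47 (72 h over 48 h). With a -log10 q of at least 5 the AP-1 difference from the sites at 72 h alone was 1.59 points and no longer called. Windows of 50 bp gave shares of 41.9% for TEAD and 10.6% for AP-1 and an AP-1 difference from the 48 h sites of -1.47 points, no longer called, and windows of 200 bp gave 58.0% and 24.0%. Among sites of 10 to 20 in fold enrichment the TEAD share was 45.9% and 3.02 points above the 48 h sites, no longer called, and the AP-1 share was 20.2% and its difference turned to 0.079 points. The core CATTCC alone gave 58.8%, and the core together with AATTCC or the word CATACC, an alternative chosen after seeing the data, 82.4%. Promoters of 1 kb gave 11.2%, and protein-coding TSSs 13.7% with a difference from the 48 h sites of -2.09 points, now called. Fragments over the genome-wide background, with the same constant added to both, gave ratios of 3.40, 1.77 and 1.90. A TSS within 1 kb gave 120 genes, and a neighbour within 50 kb 87.6%. Apart from construction (fewer or wider windows, fewer sites), the cause was not tested. Leaving out tandem repeats or sites of high background, also chosen after seeing the data, changed no call. Leaving out soft-masked sequence was not run, since the genome used here is in capitals only. No paired analysis was possible because each condition has 1 list and no result comes from a test across samples.

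Depth limits the rule itself: a site absent from the list without Dox was not called there, which does not show that TAZ was absent, and no value without Dox exists for a kept site. Fold enrichments of different times come from different libraries, so time and library cannot be told apart. TAZ-4SA is an activated transgene product, and the nearest gene need not be the one a site acts on.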
